A study of Rattus norvegicus with 6 samples.

Results

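The nuclear-encoded subunits of oxidative phosphorylation were followed in rat renal cortex after o-anisidine hydrochloride, an aromatic amine, or water. The set held 37 genes of complexes I to IV and cytochrome c, chosen by their subunit symbols and not by their values. A probe belonged to a gene where its array identifier mapped to that rat RefSeq symbol, and the brightest detected probe stood for the gene. Of the 37 genes, 35 had such a probe, among 31087 genes tested in all. Probes without a RefSeq symbol counted as genes under their array identifier, so the 31087 exceed the 15284 matched symbols. Some of these identifiers may stand for a gene that is also counted by symbol. Ndufa8 and Cyc1 had no matched probe and were not analysed here. The 18 listed subunits and regulators of complex V, of which 15 were measured, were set beside the 37 for comparison. None of the 35 measured genes passed the test for a difference between the groups, and all 35 had a 95% interval of the difference that lay within 1.5-fold in either direction. With the slide of the arrays as a block this held for 34 of 35, the exception being Uqcrq. The difference in that fit is o-anisidine replicate 3 alone against the 3 control arrays, which shared its slide.

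The first group was 3 male Sprague-Dawley rats dosed with o-anisidine hydrochloride for 4 weeks, each day with 700 mg per kg of body weight, and the control group was 3 male Sprague-Dawley rats given water for 4 weeks. All had been bought at 5 weeks of age and fed a basal diet. The sources used here do not name the route of dosing. Total RNA of the renal cortex was labelled with Cy3 and hybridised to one-colour Agilent arrays, 1 per sample. Nothing in the labels said more of the separate animals than their replicate numbers, so p-values measure the spread between these 3 samples a group.

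The respiratory chain of the inner mitochondrial membrane passes electrons from NADH and succinate to oxygen and pumps protons, and the proton gradient drives ATP synthesis. Complex I oxidises NADH, complex II oxidises succinate, complex III reduces cytochrome c, complex IV passes the electrons of cytochrome c to oxygen, and complex V makes ATP. Proximal tubule cells, which fill much of the renal cortex, are rich in mitochondria and depend on this pathway for the energy of solute reabsorption. Most subunits are encoded in the nucleus and imported, while a core of subunits is encoded in mitochondrial DNA.

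Nuclear genes of the respiratory chain are known to be regulated through binding sites for NRF1 and for ETS factors such as GABP, and YY1 sites occur at some of them. The promoters that hold such letters are shown because the genes below were examined as a group that might move together. RefSeq windows of the GRCr8 assembly were found for 32 of the 37 genes, and the 250 bases before each start were searched on both strands. An NRF1 motif, read as GCGC, then A, then any base, then GCGC, occurred in 3 of 32 windows (9.38%) and in 4.17% of all 27457 windows. A stricter form of it, with T as the free base, occurred in 0 of 32 and in 0.849% of all. The letters CCGGAAGT, an ETS motif, occurred in 4 of 32 windows (12.5%) and in 3.29% of all. The letters AAGATGGC, a YY1 motif, occurred in 0 of 32 and in 1.69% of all. Among the 19005 windows of protein-coding genes the shares were 5.45% for NRF1, 1.03% for its stricter form, 4.16% for ETS and 1.71% for YY1. No window of the 32 held both the NRF1 and the ETS motif. For each gene with a match, 80 bases around it are given 5′ to 3′ on the gene's strand, with the matched letters or their reverse complement in capitals.

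The 3 windows with the NRF1 motif belonged to subunits of complexes I, II and III. The Sdha window held 2 matches, of which 1 lies in the bases shown.
Ndufa5, chr4:53971236-53971315, minus strand: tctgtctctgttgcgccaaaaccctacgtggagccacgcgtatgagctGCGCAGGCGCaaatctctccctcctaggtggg
Sdha, chr1:30764472-30764551, plus strand: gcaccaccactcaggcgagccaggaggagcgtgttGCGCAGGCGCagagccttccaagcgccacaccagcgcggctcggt
Uqcrc1, chr8:118468124-118468203, plus strand: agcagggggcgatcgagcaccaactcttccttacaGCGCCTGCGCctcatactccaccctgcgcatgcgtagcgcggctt

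The 4 windows with the ETS motif belonged to subunits of complexes I, III and IV.
Ndufs1, chr9:72073761-72073840, minus strand: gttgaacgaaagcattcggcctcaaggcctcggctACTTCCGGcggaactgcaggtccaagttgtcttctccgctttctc
Uqcrq, chr10:38089979-38090058, minus strand: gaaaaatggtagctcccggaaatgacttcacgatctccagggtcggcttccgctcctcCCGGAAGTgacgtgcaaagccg
Cox5b, chr9:46417757-46417836, plus strand: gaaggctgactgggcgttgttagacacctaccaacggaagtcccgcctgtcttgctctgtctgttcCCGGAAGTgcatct
Cox8a, chr1:213833624-213833703, minus strand: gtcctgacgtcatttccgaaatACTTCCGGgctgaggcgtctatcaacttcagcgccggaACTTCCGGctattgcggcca

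A match of letters describes the sequence and is not a binding site shown in these rats. The log2 changes of the 7 genes were -0.03 for Ndufa5, -0.02 for Sdha, 0.07 for Uqcrc1, -0.02 for Ndufs1, 0.21 for Uqcrq, 0.05 for Cox5b and 0.01 for Cox8a, and none passed the test. Among 17 complex V windows, the NRF1 motif occurred in 4, its stricter form in 3, the ETS motif in 1 and the YY1 motif in 2.

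All values below are log2 of the background-corrected signal relative to the 75th percentile of the same array, so a level of 0 is a probe as bright as that percentile. A difference is the mean of the o-anisidine arrays minus the mean of the control arrays, tested with limma and adjusted by Benjamini-Hochberg over all 31087 genes. In bulk tissue, fewer cells of a type and less RNA per cell cannot be told apart. Levels of different probes are not compared, since probes differ in brightness for the same RNA. Every o-anisidine array had fewer probes well above background (41670 to 42766) than every control array (43075 to 43630), and a lower 75th percentile of the signal (923 to 963, against 986 to 1031). O-anisidine replicates 1 and 2 lay on slide 2, while o-anisidine replicate 3 shared slide 1 with all 3 control arrays. Any difference with the slide as a block is therefore that of o-anisidine replicate 3 alone against the 3 control arrays. The scan differed in the same way as the slide. The 10 proximal tubule markers, among them the phosphate transporter Slc34a1 and the glucose transporter Slc5a2, and the 5 podocyte markers were all detected. Over all genes, 19 were called at a limma adjusted p under 0.05, 11 higher and 8 lower.

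All 35 measured subunits were well above background on all 6 arrays. None was called by limma at a Benjamini-Hochberg adjusted p under 0.05, where 0.0611% of all genes were called, 0.0354% higher and 0.0257% lower. At an unadjusted p under 0.05 the count was again 0 of 35, where 11.5% of all genes passed, 6.36% higher and 5.14% lower. In 5 of 35 subunits (14.3%) the o-anisidine and control arrays did not overlap, a share near the 18.4% of all genes (9.55% higher and 8.88% lower). These were Ndufs7, Sdhc, Uqcrc1 and Cox5a with all o-anisidine arrays above all control arrays, and Ndufa1 with all o-anisidine arrays below. Across the genes, 22 differences were above 0 and 13 below. These signs depend on the probe: of 17 subunits with several detected probes, 9 had probes that differed in sign. The median log2 change of the 35 subunits was 0.03 against 0.004 for all genes, and it was -0.03 under quantile normalization. Genes with a mean log2 level of at least 4.0 had a median of 0.03 as well. Of these genes, 60.2% were above 0, against 60.6% of the subunits at that level. The single differences of the subunits ranged from -0.10 for Cycs to 0.21 for Uqcrq. Leaving out 1 array at a time gave 6 to 14 subunits without overlap (17.1% to 40.0%, against 25.9% to 34.9% of all genes). The count was 14 (40.0%, against 34.9% of all genes) without o-anisidine replicate 3, and 9 (25.7%) without o-anisidine replicate 2 or without control replicate 3, against 28.8% and 29.6% of all genes.

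**Figure D1:**
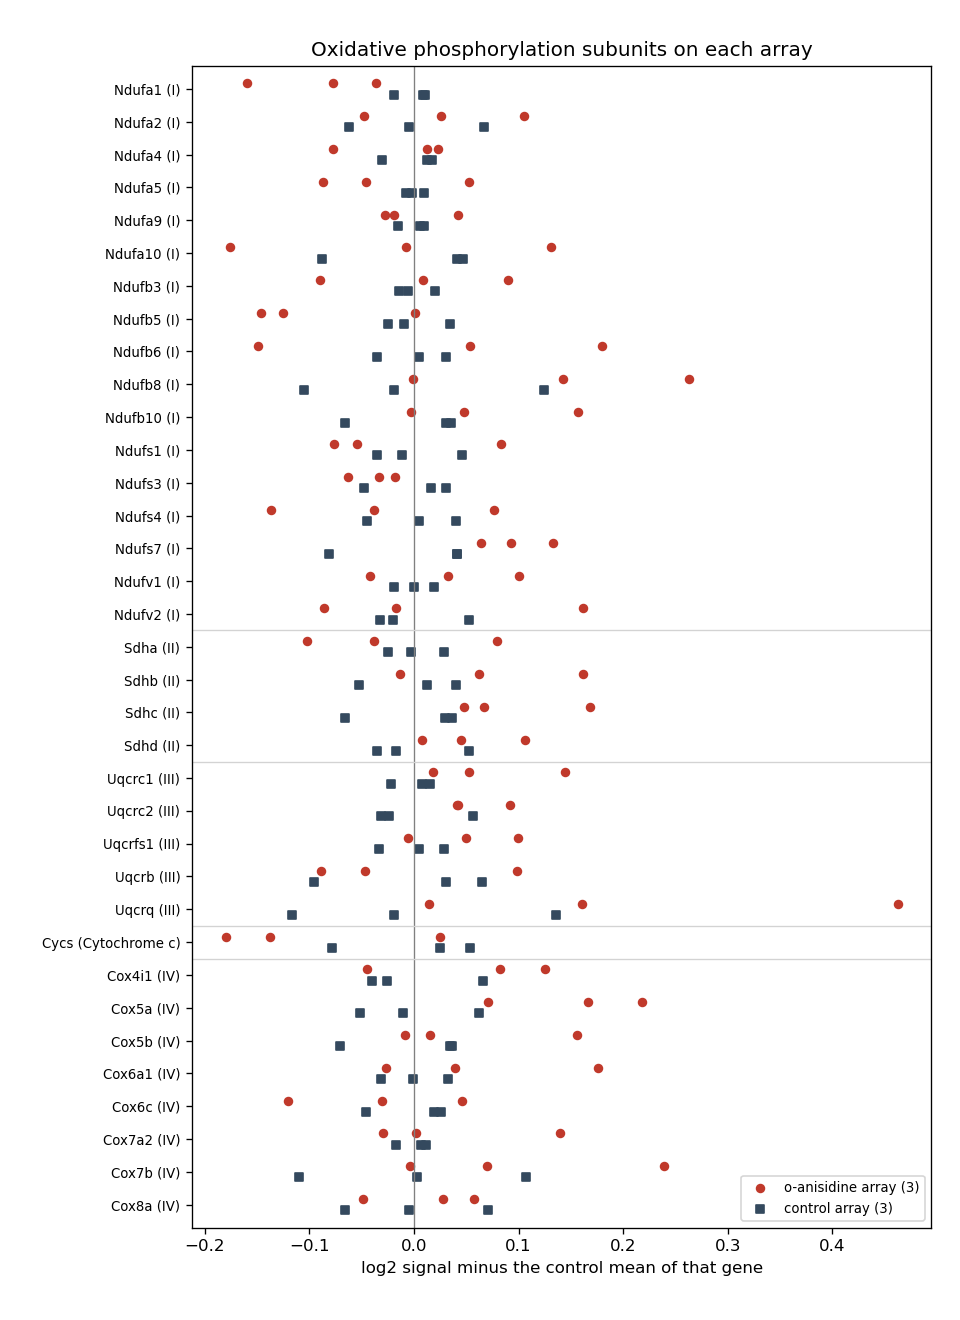
Difference of each measured subunit from its control mean, in log2 units, on every array, with 1 row per gene and genes grouped by complex. In each row the o-anisidine points lie just above the control points, and the 3 arrays of a group share 1 marker. Most values on o-anisidine replicate 2 are above the control mean (29 of 35 genes), while 18 and 15 of 35 genes are above it on o-anisidine replicates 1 and 3. On control replicates 1, 2 and 3 the counts are 11, 17 and 26 of 35. The share on o-anisidine replicate 2 is 82.9% of subunits and 55.2% of all genes. It is 65.9% of genes with a mean log2 level of at least 4.0.

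The measurements bounded the possible differences more narrowly than for most genes. The 95% interval of the difference lay within 1.5-fold for 35 of 35 subunits and for 71.6% of all genes. It lay within 1.2-fold for 25 of 35 subunits (71.4%) and for 18.2% of all genes. The lowest bound of any subunit was a fold of 0.808, for Cycs, and the highest was 1.46, for Uqcrq. The upper bound of Uqcrq was 1.76-fold with the slide as a block, 1.81-fold on the slide with both groups, and 1.55-fold to 1.59-fold without o-anisidine replicate 1 or 2 or control replicate 2 or 3. The median spread between arrays of a group was a residual SD of 0.07 log2 units for the subunits and 0.15 for all genes. Bright probes varied less. Among the 2788 genes with a mean log2 level of at least 4.0, a limit chosen after the values were seen, the median residual SD was 0.08, 40.9% had an interval within 1.2-fold, and 668 had groups that did not overlap. Of the 33 subunits above the same level, 72.7% had an interval within 1.2-fold and 5 had groups that did not overlap.

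**Figure D2:**
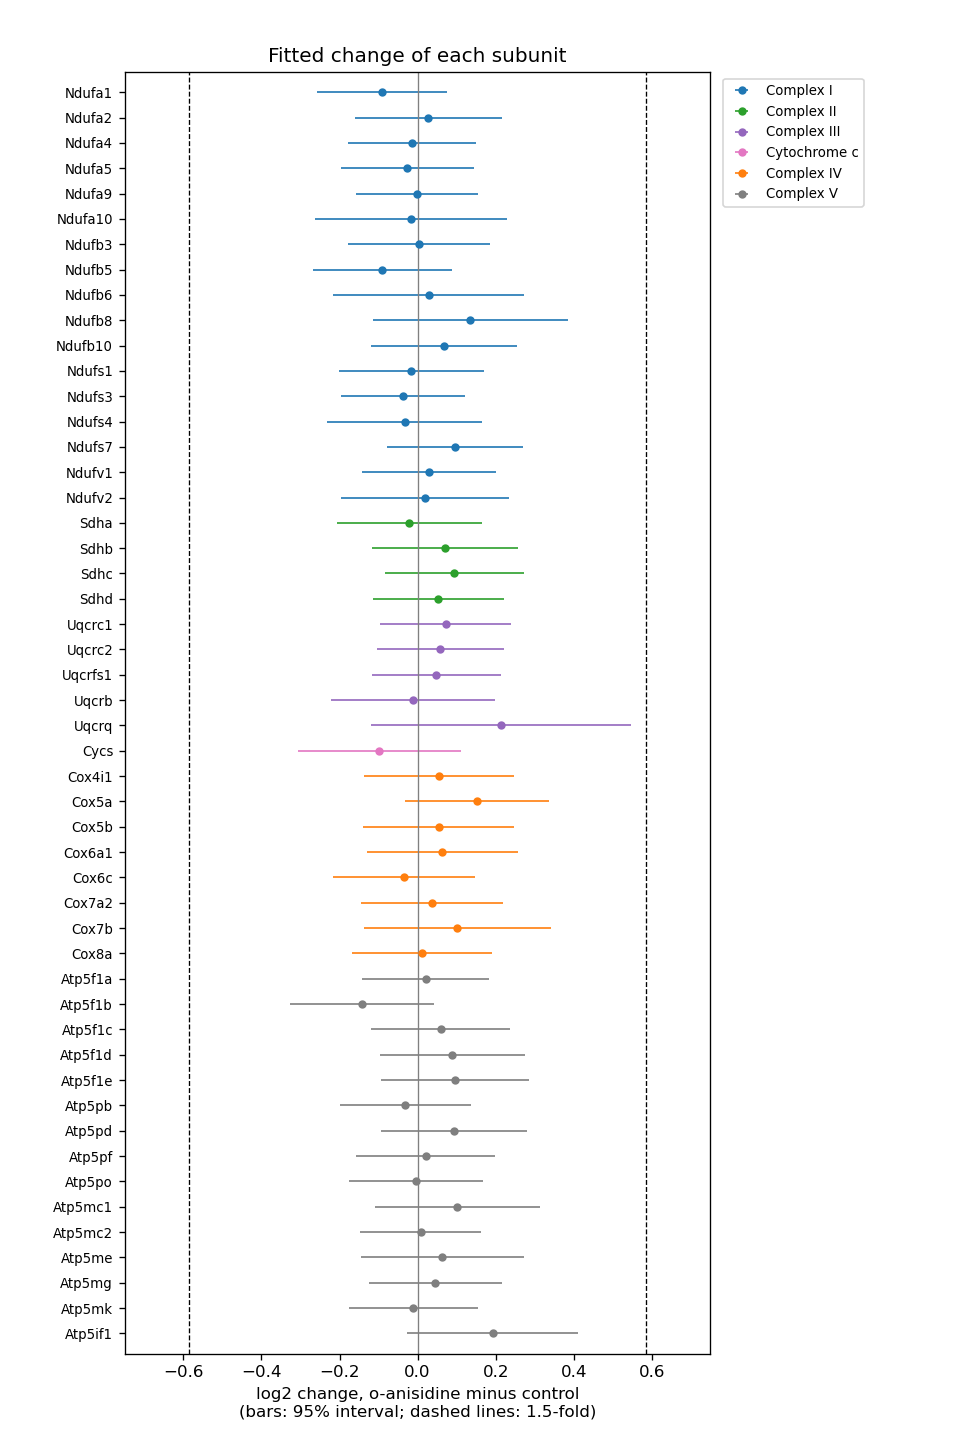
Fitted log2 change of each subunit, o-anisidine minus control, with its 95% interval (points and bars), by complex, with dashed lines at 1.5-fold. Every interval crosses 0 and lies between the dashed lines, and Uqcrq has the widest interval of complexes I to IV.

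Complex I, the NADH dehydrogenase, was measured by 17 of 18 listed subunits, and 8 differences were above 0 and 9 below. The median log2 change was -0.001, with a range from -0.09 to 0.13. Ndufs7, an iron-sulfur subunit close to the ubiquinone site, had log2 levels of 5.91, 5.94 and 5.98 on the o-anisidine arrays, against 5.89, 5.76 and 5.89 on the control arrays. The o-anisidine arrays were all above the control arrays, by a margin smaller than the spread of the controls. Its log2 change was 0.10 (SE 0.07, limma adjusted p = 0.642), and a second, dimmer probe gave 0.32. Ndufb8, a supernumerary membrane subunit, had levels of 7.86, 7.74 and 7.59 on the o-anisidine arrays, against 7.49, 7.57 and 7.72 on the control arrays. The groups overlapped, and the log2 change of Ndufb8 was 0.13 (SE 0.10, 95% interval -0.11 to 0.38, limma adjusted p = 0.651). With the slide as a block the Ndufb8 difference was -0.001. Ndufa1, a small membrane subunit needed for assembly of the complex, had levels of 6.71, 6.83 and 6.79 on the o-anisidine arrays, against 6.88, 6.85 and 6.88 on the control arrays. All o-anisidine arrays were lower, with replicate 2 close to the control range. Its log2 change was -0.09 (SE 0.07, 95% interval -0.26 to 0.08, limma adjusted p = 0.646), and its second probe gave -0.08.

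The remaining complex I subunits had differences between -0.09 and 0.07. The catalytic core was represented by Ndufv1, which carries the flavin that accepts electrons from NADH, with a log2 change of 0.03 (95% interval -0.14 to 0.20). A second Ndufv1 probe gave -0.04. Ndufv2, its iron-sulfur partner, had 0.02 and Ndufs1, the largest iron-sulfur subunit, had -0.02. Ndufs4, a subunit whose loss in mice gives a model of Leigh syndrome, had -0.03, with 0.13 by a second probe. Ndufa9 had levels of 4.24, 4.31 and 4.25 on the o-anisidine arrays, against 4.27, 4.27 and 4.25 on the control arrays, and the difference was -0.001. Ndufa4, listed here with complex I but now known to associate with complex IV, had -0.01.

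Complex II, succinate dehydrogenase, is shared by the respiratory chain and the citric acid cycle and is encoded by 4 nuclear genes, all measured. Its median log2 change was 0.06, against -0.003 with the slide as a block, and 3 of 4 differences were above 0. Sdhc, a membrane anchor, had levels of 5.64, 5.74 and 5.62 on the o-anisidine arrays, against 5.50, 5.60 and 5.60 on the control arrays. The groups did not overlap, but o-anisidine replicate 3 lay just above control replicates 2 and 3. The fitted log2 change was 0.09 (SE 0.07, 95% interval -0.08 to 0.27, limma adjusted p = 0.660). Sdha, the flavoprotein that oxidises succinate, had levels of 6.97, 7.15 and 7.04 on the o-anisidine arrays, against 7.07, 7.05 and 7.10 on the control arrays. The o-anisidine arrays lay on both sides of the controls, with a log2 change of -0.02 (SE 0.08, limma adjusted p = 0.937). Sdhb, the iron-sulfur subunit, had 0.07, with -0.01 by a second probe, and Sdhd, the second anchor, had 0.05.

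Complex III was measured by 5 of 6 listed subunits, with a median log2 change of 0.06 and 4 differences above 0. The median was 0.12 with normexp background correction and 0.02 with the slide as a block. Uqcrq, a small subunit near the cytochrome b core, had the largest difference of the whole set. Its levels were -0.01, -0.16 and 0.29 on the o-anisidine arrays, against -0.29, -0.19 and -0.04 on the control arrays. O-anisidine replicate 3 stood above the rest, and the other two o-anisidine arrays lay within or near the control range. For Uqcrq the log2 change was 0.21 (SE 0.14, 95% interval -0.12 to 0.55, limma adjusted p = 0.598). The value rested on o-anisidine replicate 3: without that array the Uqcrq difference was 0.09. That array alone against the 3 control arrays of its slide gave 0.46 (limma adjusted p = 0.422). Uqcrb, a ubiquinone-binding subunit, had levels of 7.03, 7.18 and 6.99 on the o-anisidine arrays, against 6.98, 7.14 and 7.11 on the control arrays, with a log2 change of -0.01 (SE 0.09, limma adjusted p = 0.968). The groups overlapped almost wholly, and the 4 Uqcrb probes ranged from -0.06 to 0.02. Uqcrc1, a core subunit, had 5.12, 5.21 and 5.08 on the o-anisidine arrays, against 5.08, 5.07 and 5.04 on the control arrays. Its log2 change was 0.07, but its second probe gave -0.07. Uqcrc2, the other core subunit, had 0.06, and Uqcrfs1, the Rieske iron-sulfur protein, had 0.05.

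Cycs, the somatic cytochrome c that carries electrons from complex III to complex IV and also takes part in apoptosis, had the lowest difference of the set. Its levels were 7.20, 7.16 and 7.36 on the o-anisidine arrays, against 7.36, 7.26 and 7.39 on the control arrays. O-anisidine replicates 1 and 2 were below all controls, while o-anisidine replicate 3 was level with control replicate 1. For Cycs the log2 change was -0.10 (SE 0.09, 95% interval -0.31 to 0.11, limma adjusted p = 0.696), and 5 probes ranged from -0.10 to 0.04. With the slide as a block the difference was 0.02.

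Complex IV, cytochrome c oxidase, was measured by all 8 listed subunits. Its median log2 change was 0.05, with 7 differences above 0, but it was -0.05 under quantile normalization and -0.03 with the slide as a block. Cox5a, a subunit on the matrix side, had the smallest p of all 35 genes. Its levels were 6.92, 7.01 and 7.06 on the o-anisidine arrays, against 6.79, 6.84 and 6.91 on the control arrays. All o-anisidine arrays were above all control arrays, with o-anisidine replicate 1 just above control replicate 3. Cox5a had a log2 change of 0.15 (SE 0.08, 95% interval -0.03 to 0.34, limma adjusted p = 0.499), and a second probe gave 0.13. Cox6c, a membrane subunit, had levels of 7.44, 7.61 and 7.53 on the o-anisidine arrays, against 7.51, 7.58 and 7.59 on the control arrays. The groups overlapped, and the log2 change was -0.04 (SE 0.07, limma adjusted p = 0.886), with 0.04 by a second probe. Cox4i1, the ubiquitous isoform of the subunit that responds to ATP, had 0.05 (95% interval -0.14 to 0.25). Cox7b had 0.10, Cox6a1 0.06, Cox5b 0.05, Cox7a2 0.04 and Cox8a 0.01. A second Cox7a2 probe gave -0.03.

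Complex V, the ATP synthase, was compared through 15 of 18 listed genes, since Atp5mc3, Atp5mf and Atp5mj were not measured. None was called and none had an unadjusted p under 0.05. The median log2 change was 0.04 with 11 differences above 0, against -0.05 under quantile normalization and -0.02 with the slide as a block. Atp5if1, the inhibitor that blocks reverse rotation of the enzyme when the proton gradient collapses, had levels of 6.34, 6.51 and 6.26 on the o-anisidine arrays, against 6.10, 6.23 and 6.20 on the control arrays. The o-anisidine arrays were all above the controls, with a log2 change of 0.19 (SE 0.09, limma adjusted p = 0.475). Atp5f1b, the catalytic beta subunit, had 5.85, 5.87 and 6.01 on the o-anisidine arrays, against 6.03, 6.10 and 6.02 on the control arrays. All its o-anisidine arrays were lower, with a log2 change of -0.14 (SE 0.08, limma adjusted p = 0.522). Atp5f1a, the alpha subunit that alternates with beta in the catalytic head, had a log2 change of 0.02 by its brighter probe and -0.14 by the other. Across the 5 complexes the medians lay between -0.001 and 0.06.

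Further subunits outside the 37 had log2 changes between -0.15 and 0.10. Of 20 further complex I subunits, 15 were measured, with a median of 0.008 and 0 called. Of the 15, 4 had groups apart (26.7%, against 18.4% of all genes), 2 higher and 2 lower. Ndufs8, an iron-sulfur subunit of the electron path, had levels of 3.48, 3.53 and 3.48 on the o-anisidine arrays, against 3.64, 3.63 and 3.65 on the control arrays. Its groups were tightly placed and apart, with a log2 change of -0.15 (SE 0.06, limma adjusted p = 0.448), and a second probe gave -0.09. Ndufab1, the acyl carrier protein of the complex, had o-anisidine arrays all above the controls (0.10), and Ndufv3 had them all below (-0.07). Of 6 further subunits of complexes III and IV, Cox7c had the smallest p, with 0.09 (limma adjusted p = 0.741), and only Cox7a2l had groups apart, with -0.07. Over all 81 listed subunits, 71 were measured, 0 were called, 0 had an unadjusted p under 0.05 and 12 had groups apart (16.9%, against 18.4% of all genes). The median over the 71 was 0.03, with all 71 intervals within 1.5-fold.

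Isoforms typical of other tissues were measured in 5 of 9 listed genes, and none was called. Cyct, the testis form of cytochrome c, had the smallest p of these, with -0.42 (limma adjusted p = 0.530), and was well above background on 1 of 3 o-anisidine arrays and 3 of 3 control arrays. Cox8c was not well above background. The 13 subunits encoded in mitochondrial DNA had no matched probe and were not analysed here.

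**Figure D3:**
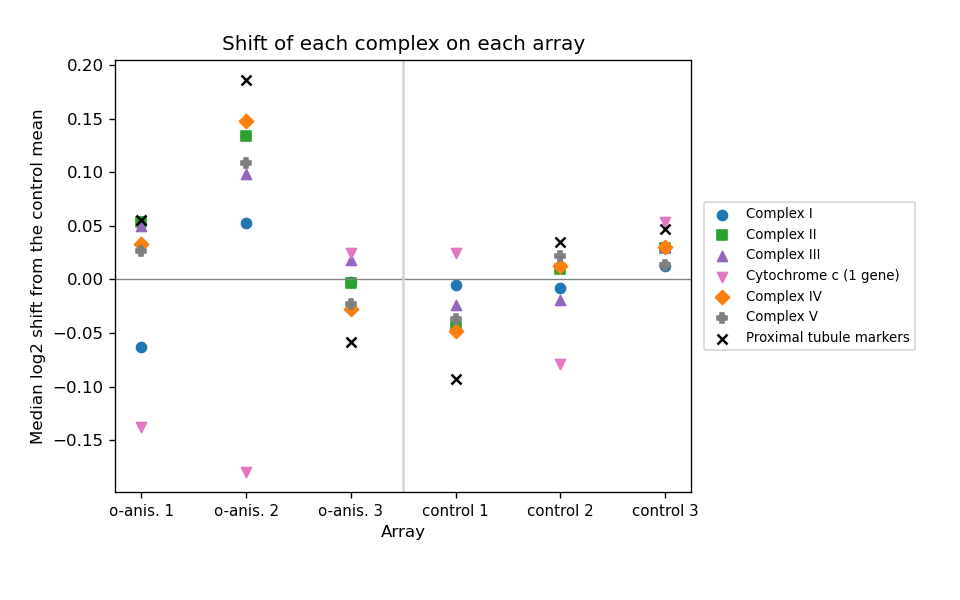
Median difference from the control mean, in log2 units, over the genes of each complex, for cytochrome c (1 gene) and over the proximal tubule markers, 1 point per array, with o-anisidine arrays left of control arrays. O-anisidine replicate 2 has the highest point for complexes I to V and for the proximal tubule markers but the lowest for cytochrome c, and o-anisidine replicate 3 lies within the control range for complexes I to V and for the markers.

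The shifts of the complexes differed among the arrays of one group. Relative to the mean of the controls, the 35 subunits had medians of 0.002, 0.09 and -0.004 on o-anisidine replicates 1, 2 and 3, against -0.03, -0.005 and 0.03 on control replicates 1, 2 and 3. Only o-anisidine replicate 2 stood above the control range. Genes with a mean log2 level of at least 4.0 had medians of 0.02, 0.06 and 0.007 on o-anisidine replicates 1, 2 and 3. On control replicates 1, 2 and 3 their medians were -0.04, 0.02 and 0.03, so they were likewise highest on o-anisidine replicate 2. Complex IV had 0.03, 0.15 and -0.03 on the o-anisidine arrays, against -0.05, 0.01 and 0.03 on the control arrays. Complex I had -0.06, 0.05 and -0.003 on the o-anisidine arrays, against -0.006, -0.008 and 0.01 on the control arrays. The 10 proximal tubule markers had 0.06, 0.19 and -0.06 on the o-anisidine arrays, against -0.09, 0.04 and 0.05 on the control arrays, so they too were highest on o-anisidine replicate 2. Their summed linear level ranged from 1642 to 1898 on the o-anisidine arrays and from 1594 to 1775 on the control arrays, and no marker was called. The part of tubule content in the subunits' shift was not tested. Without o-anisidine replicate 2 the median over the 35 subunits was -0.01.

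Assembly factors, which build the complexes without staying in them, had list medians slightly below 0, but not on every o-anisidine array. Of 14 complex I factors 11 were measured, with a median of -0.04, 4 above 0 and 7 below, and 0 called. Relative to the control mean, their medians were -0.07, 0.0007 and -0.03 on o-anisidine replicates 1, 2 and 3. On control replicates 1, 2 and 3 they were -0.03, 0.01 and -0.01. Ndufaf7, a methyltransferase that modifies a core subunit during assembly, had the smallest p, with -0.12 (limma adjusted p = 0.560). Of 30 factors for complexes II to V 24 were measured, with a median of -0.03, 7 above 0 and 17 below, and 0 called. Their medians by array were -0.05, 0.03 and -0.05 on o-anisidine replicates 1, 2 and 3, against -0.01, 0.02 and 0.02 on control replicates 1, 2 and 3. Sdhaf1, which helps to place iron-sulfur clusters in Sdhb, had levels of 3.89, 3.75 and 4.02 on the o-anisidine arrays, against 4.37, 4.35 and 4.44 on the control arrays. Every o-anisidine array was lower than every control array by more than the spread within either group. The log2 change of Sdhaf1 was -0.50 (SE 0.09, limma adjusted p = 0.139, unadjusted p = 0.0013), with -0.34 by a second probe and -0.37 with the slide as a block. It did not pass the test over all genes, and its adjusted p ranged from 0.0551 to 0.393 over the alternatives. Bcs1l, which inserts the Rieske protein, and the copper carrier Cox17 had o-anisidine arrays below all control arrays, with -0.15 and -0.12, and Coa3 had them above, with 0.10. With Sdhaf1, 4 of the 24 factors had groups apart (16.7%, against 18.4% of all genes).

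**Figure D4:**
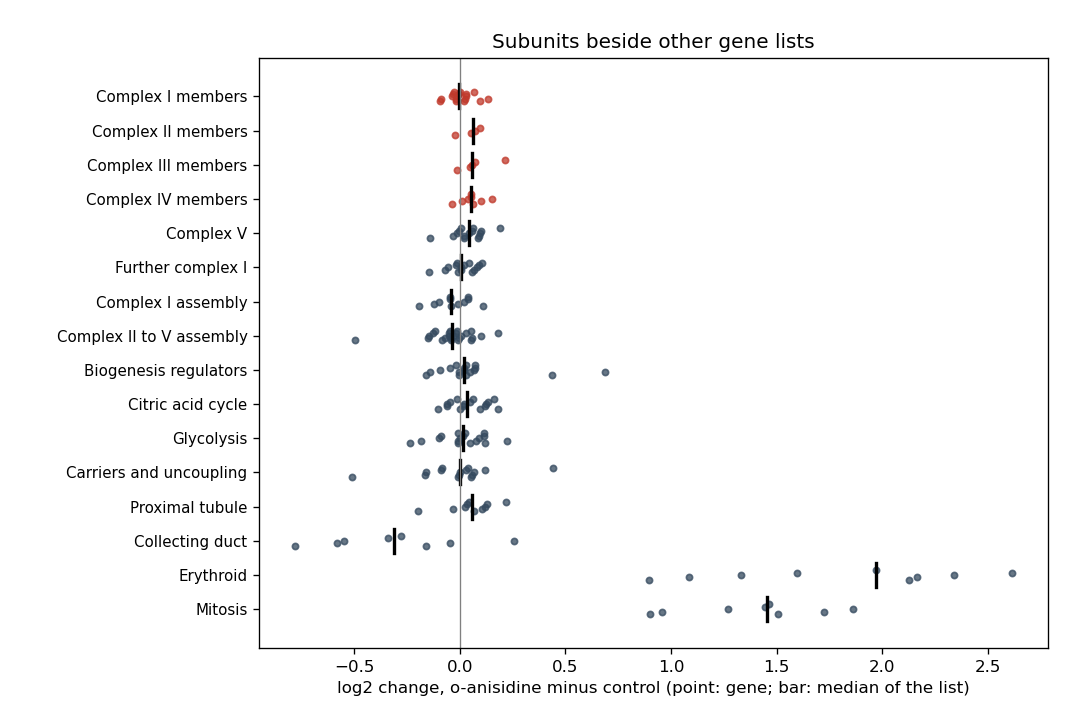
Log2 change of each gene, o-anisidine minus control, in the subunit sets (red, and complex V and further complex I in blue), in related pathways and in 4 marker lists, with 1 point per gene and a bar at each list's median. The subunits lie between -0.15 and 0.21, Sdhaf1, Ppargc1b, Esrrb, Ucp1 and Ucp2 lie farther from 0, and the erythroid and mitosis lists have medians of 1.97 and 1.45.

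Among 18 listed regulators of mitochondrial biogenesis 17 were measured, with a median of 0.02 and 0 called. Ppargc1b, a coactivator of the estrogen-related receptors and of NRF1, had levels of 0.56, 0.55 and 0.50 on the o-anisidine arrays, against -0.01, 0.10 and 0.19 on the control arrays. The groups were well apart. Its log2 change was 0.44 (SE 0.08, limma adjusted p = 0.139), and adjusted p ranged from 0.0591 to 0.434 over the alternatives. Its relative Ppargc1a had 0.03 (95% interval -0.40 to 0.46). The transcription factors Nrf1, Gabpa and Esrra had -0.002, -0.09 and -0.02, and Tfam, which packages and transcribes mitochondrial DNA, had 0.03. Esrrb, named after its value was seen, had 0.69 (SE 0.27, limma adjusted p = 0.416), from a dim probe with levels of -5.10, -4.69 and -5.64 on the o-anisidine arrays, against -5.58, -5.77 and -6.15 on the control arrays.

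In the neighbouring pathways no gene was called. The citric acid cycle had 16 of 16 genes measured, a median of 0.03 (11 above 0) and smallest p for Dlst, the transsuccinylase of the oxoglutarate dehydrogenase complex, with 0.13 (limma adjusted p = 0.492). Glycolysis had 17 of 17 measured, a median of 0.01 (10 above 0) and smallest p for Gapdh, with 0.22 (limma adjusted p = 0.422). Of 16 mitochondrial carriers and related proteins 15 were measured, with a median of 0.002. Ucp2, an inner-membrane carrier of the uncoupling protein family named after its value was seen, had levels of -0.25, -0.48 and -0.56 on the o-anisidine arrays, against -0.92, -0.81 and -0.87 on the control arrays. The groups did not overlap, and the log2 change was 0.44 (SE 0.10, limma adjusted p = 0.212). Ucp1, the brown fat uncoupling protein, had a dim probe, with levels of -5.34, -5.27 and -5.48 on the o-anisidine arrays, against -4.67, -5.03 and -4.87 on the control arrays, and a log2 change of -0.51 (limma adjusted p = 0.207). With another background correction the Ucp1 value was -0.13.

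Some marker lists, chosen with earlier results of these data known, gave larger differences on the same arrays. Well above background on all 6 arrays were 8 of the 9 measured erythroid genes and 7 of the 8 measured mitosis genes. The 9 measured erythroid genes had a median log2 change of 1.97, and Kel, Ahsp, Hemgn and Rhd rose, with 2.17, 2.34, 1.97 and 2.61 (limma adjusted p = 0.0020, 0.0419, 0.0101 and 0.0048). With the slide as a block the limma adjusted p was 0.0446, 0.162, 0.124 and 0.114, so of these 4 only Kel passed, and on the slide with both groups none of the 4 did, with log2 changes from 1.98 to 2.58. Kel and Hemgn had 0.98 and 1.30 with normexp background correction. Without any single array Ahsp was not called, Hemgn was not called without o-anisidine replicate 1 or 3 or control replicate 1 or 2, and Rhd was not called without o-anisidine replicate 3. Cd52, a lymphocyte surface protein, rose by 2.12 (limma adjusted p = 0.038), but was not called with the slide as a block (limma adjusted p = 0.151), without a filter on dim probes (0.0999) or without any single array (0.0601 to 0.129), while the 9 measured leukocyte genes had a median of -0.10. The 8 injury genes had a median of 1.18 and differed among animals, with medians of 1.58, 0.14 and 1.18 on o-anisidine replicates 1, 2 and 3. Krt19, a keratin of stressed epithelium, had 2.88 (limma adjusted p = 0.0894). The 8 measured mitosis genes had a median of 1.45, with the smallest p for Racgap1, whose log2 change of 0.90 was the lowest of the 8 (limma adjusted p = 0.0891). The collecting duct list had a median of -0.31, with -0.55 for the sodium channel subunit Scnn1b (limma adjusted p = 0.101). Lrp2, the proximal tubule marker of smallest p, had -0.20, where 8 of the 10 markers were above 0 and their median was 0.06. Egf of the distal nephron had -0.17 and Podxl of podocytes -0.31 (for Lrp2, Egf and Podxl, limma adjusted p = 0.514, 0.589 and 0.440). Egf and Podxl were the genes of smallest p in their lists. The 5 measured thick limb and distal genes had a median of -0.04, with 2 above 0. The 5 podocyte genes had a median of -0.08, with 0 above 0, and Podxl was the lowest of them.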

How the data were processed

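RNA of 6 samples was measured on one-colour Agilent arrays, 3 per group, with groups taken from the labels. The deposited scanner files give each spot's intensity as processed signal, already background-corrected per the file headers (Feature Extraction 10.7.1.1, and 10.7 per the submitters' processing notes). The array design names rat build rn4, and genes were named through RefSeq GRCr8, with 27460 of 61657 non-control probes matched to 15284 symbols. The other 34197 probes were grouped by array identifier, and each identifier counted as a gene among all genes. Control spots and 16 probes with outlier flags were left out, and no probe was saturated. Processed signals were scaled to each array's 75th percentile and taken to log2. A gene was tested where every array of 1 group or both had its probe well above background, and the brightest detected probe stood for it. The authors' deposited value table holds a linear ratio of the signal to that percentile (column medians 0.104 to 0.108). Its columns matched scanner files of the right group but of different replicate numbers, so it served as an alternative only. Limma 3.58.1 in R 4.3.3 (lmFit and eBayes) fitted 2 groups with 4 residual and 2.1 prior degrees of freedom, adjusted over 31087 genes by Benjamini-Hochberg, and was tested on simulated data. The files hold no mean signal, so normexp (offset 50) used the median signal. Named were, for each complex, the gene of smallest p, of largest and of lowest difference, and for each other list the gene of smallest p and every called gene; others were named as examples by role or because their groups did not overlap. Alternatives covered background, scaling, filter, probe choice, slide, replicate block, variance model, the authors' values and leaving out each array. The members and lists were chosen with earlier results of these data known. The number of arrays limits the precision.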

Additional observations from a re-analysis of the deposited data

How the results depend on the processing

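No subunit was called in any of 595 fits of single subunits under 17 alternatives, whose smallest limma adjusted p ranged from 0.271 to 0.723. All genes called numbered 19, against 86 with normexp background correction, 11 without a filter on dim probes, 3 with the slide as a block, 2 on the slide with both groups, 1 with the replicate block, 120 with a trended and robust variance, and 3 to 21 leaving out 1 array. Deviations from the group means had correlations of 0.0201, 0.0773 and 0.0123 for same-numbered arrays, against -0.0485 to 0.0293 for other pairs. These values do not settle whether the replicate numbers pair the samples. One subunit had an unadjusted p under 0.05 under each of 5 alternatives, so the count was 1 in place of 0: Ndufs7 with normexp (0.20), Uqcrq with the slide as a block and on the slide with both groups (0.46), Cox5a with the trended variance (0.15) and Cox8a with quantile normalization (-0.15). Subunits whose groups did not overlap numbered 5. With array median scaling they numbered 3 (8.57%, against 18.2% of all genes), and with the mean of all probes 3 (8.57%, against 18.6%). On the slide with both groups they numbered 18 (51.4%, against 56.8% of all genes). Leaving out 1 array gave 6 to 14 (17.1% to 40.0%, against 25.9% to 34.9% of all genes).

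Quantile normalization moved the median over the subunits to -0.034, complex IV to -0.046 and complex V to -0.049, and normexp moved complex III to 0.12. The slide as a block and the slide with both groups both set o-anisidine replicate 3 alone against the control arrays. In these fits complexes II, III, IV and V had medians of -0.0030, 0.018, -0.028 and -0.022. Leaving out 1 array gave medians from -0.010 to 0.049 over the subunits, -0.033 to 0.019 for complex I, 0.025 to 0.094 for complex II, 0.036 to 0.075 for complex III, 0.0050 to 0.089 for complex IV and 0.0055 to 0.073 for complex V. Of the 35 subunits, 17 turned sign with the slide as a block, 9 with quantile normalization, 5 with normexp, 4 with the mean of all probes and 2 to 9 leaving out 1 array. Among the subunits named by smallest p or extreme difference, signs turned for Uqcrb (0.055 with normexp, and 0.0048, 0.026, 0.020 and 0.0027 without o-anisidine replicate 1, o-anisidine replicate 3, control replicate 2 and control replicate 3, where leaving out 1 array gave -0.068 to 0.026), Cox6c (0.00085 with the mean of all probes, -0.076 to 0.0076 leaving out 1 array, positive without o-anisidine replicate 1), Sdha (-0.071 to 0.020, positive without o-anisidine replicate 1), and Ndufb8 and Cycs (-0.0011 and 0.024 with the slide as a block and on the slide with both groups). The cause was not tested. Of 543 results for named genes, 494 kept direction and side of the threshold, 12 turned sign, 33 lost a call and 4 gained one. The 494 are no measure of stability, since the replicate block and the trended variance leave every log2 change as it was. All 33 lost calls were of Kel, Ahsp, Hemgn, Rhd and Cd52, the only named genes called in the main fit. Kel, Ahsp, Hemgn, Rhd and Cd52 were not called with the replicate block (limma adjusted p 0.0846 to 0.129). Signal over background limits Cyct, Ucp1, Esrrb, Kel and Hemgn, whose probes were dim.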
